A study of Mus musculus with 147 samples.

Results

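The 40 genes described here are markers of the epithelial cells that line the nephron tubule, read in 147 single cells that had been sorted as renin cells. They were taken as a fixed list of symbols, 16 for the proximal tubule, 9 for the loop of Henle and distal tubule, 10 for the collecting duct and 5 for epithelium in general, and all 40 were among the 35438 genes of the count tables. The cells came from the kidney cortex of adult C57BL/6 mice that carried *Ren1c-YFP*, a transgene in which 5′ regulatory DNA of renin drives yellow fluorescent protein, and were sorted for YFP. The first group was 51 WT renin cells from 4 *Ren1c*+/+ *Ren1c-YFP* mice in 1 capture, and the second was 96 Renin-null cells from 12 *Ren1c*-/- *Ren1c-YFP* mice in 4 captures. Mice with the *Ren1c* deletion had been given saline under the skin on consecutive days after birth, and both sexes were used. Which mouse or capture a cell came from is not labelled. Each cell was one well of the Fluidigm C1 microfluidic chip, chosen under the microscope as holding 1 living cell, and its full-length cDNA was sequenced without molecular identifiers. The WT wells formed 1 library and the Renin-null wells 2, named YFP1 and YFP2, of 48 wells each.

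Each segment of the nephron is built for a different part of turning filtrate into urine, and its cells are known by the transporters they carry. Proximal cells take back most of the filtered sodium, phosphate, glucose and protein, the thick ascending limb dilutes the urine and secretes uromodulin, the distal convoluted tubule adjusts salt and calcium, and the collecting duct adjusts water, sodium and acid. Renin cells are not tubule cells. They sit in the wall of the afferent arteriole, share the contractile protein smooth muscle actin (*Acta2*) with the vessel wall, and carry *Akr1b7*, an aldo-keto reductase used as a marker of the renin cell. The question for these genes was which sorted wells carried tubule genes, and whether those wells carried the 2 mural genes as well.

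The WT wells summed to 197904443 counts and the Renin-null wells to 398812805. A WT well had a median of 1525972 counts (26401 to 17124854), 3528 genes with a count and 60.4% of its counts from 13 mitochondrially encoded genes, and a Renin-null well had a median of 4107950.5 counts (3628 to 14505243), 4999.5 genes and 12.4% mitochondrial counts. These differences in depth and in the mitochondrial share run with genotype, and their part in the differences below was not tested beyond the alternatives given. *Ren1*, the deleted gene, had 19003442 counts in WT wells and 54 in Renin-null wells, so the tables follow their genotype labels. Levels are given as CPM, counts per 1000000 counts of the well or of the summed group. A gene was called held by a well at 100 CPM or more and at least 10 counts, and a well was said to hold a segment when it held at least 3 of that segment's members, or at least 2 of the general epithelial members. With mice and captures unlabelled, each genotype was 1 sample, so no test between genotypes was possible and intervals cover counting error only, as PCR copies are not independent molecules.

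Some wells stood apart from the rest. Of all pairs of wells, 4 had log2(CPM + 1) correlated above 0.9, namely Renin-null wells 45 and 93, 46 and 94, 47 and 95, and 48 and 96. Wells are numbered in the order of the records within each genotype. The first 3 pairs joined a YFP1 well to a YFP2 well and the last joined 2 YFP2 wells. Wells 45 and 93 held the same 6 members, and wells 48 and 96 shared 15 of the 16 and 17 they held. Some results are given below with each pair counted once as well. A further 2 wells, 68 and 69 of YFP2, carry different sequencing indices in different label fields. Over 9000 genes had a count in 1 WT well, well 10, and in 6 Renin-null wells, wells 48 and 96 among them, against the genotype medians above.

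In no WT well did a segment reach its threshold, whereas 11 of 96 Renin-null wells held at least 1 segment (11.5%, 95% Clopper-Pearson interval 5.86 to 19.6). The 0 of 51 WT wells allow a share of up to 5.88% for each segment, taking 3 wells as the limit of a count of 0, and the Clopper-Pearson upper limit was 6.98%. Proximal genes were held by 8 Renin-null wells (8.33%, 3.67 to 15.8), general epithelial genes by 5 (5.21%, 1.71 to 11.7), collecting duct genes by 2 (2.08%, 0.253 to 7.32) and loop and distal genes by 1 (1.04%, 0.0264 to 5.67). By library, YFP1 had 2 proximal, 1 loop and distal, 0 collecting duct and 2 epithelial wells of 48, and YFP2 had 6, 0, 2 and 3 of 48. With each near-identical pair counted once, the proximal wells were 6 of 92 and the collecting duct wells 1 of 92, and with the wells of over 9000 genes left out they were 6 of 90 and 0 of 90. The proximal wells stood clear of the rest, since 71 Renin-null wells held no proximal member, 15 held 1, 2 held 2, none held 3, and the 8 wells held 4, 4, 7, 7, 8, 9, 10 and 12.

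The 8 proximal wells shared *Miox* and *Slc34a1*. *Miox*, myo-inositol oxygenase of the proximal tubule (chr15:89334398-89337015, plus strand, GRCm38), stood at 408 CPM in Renin-null well 19, 1938 in well 52, 6064 in well 72, 2784 in well 69, 473.5 in well 45, 428 in well 93, 2132 in well 48 and 1266.5 in well 96. No other Renin-null well held it. *Slc34a1*, the sodium phosphate cotransporter of the brush border (chr13:55398187-55415592, plus strand), ranged from 385 CPM in well 45 to 1875 in well 72 and was held by all 8 and by 3 further wells, 47, 84 and 95, at 296 to 569 CPM. *Fbp1*, the gluconeogenic fructose bisphosphatase, was held by 7 of the 8, at 131 to 2666 CPM, and was 19.0 CPM in well 69. *Slc13a1*, the sodium sulfate cotransporter, was held by 6 of the 8 and was 0.940 and 0 CPM in wells 45 and 93.

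Because these members were held together, the promoters of the 2 with the most counts are printed, from 250 bases before to 50 after the RefSeq start on GRCm38.p6. Capitals mark matches to GTTAAT or its reverse complement ATTAAC, the half-site of the hepatocyte nuclear factor 1 family.
*Miox*, chr15:89334223-89334522, plus strand: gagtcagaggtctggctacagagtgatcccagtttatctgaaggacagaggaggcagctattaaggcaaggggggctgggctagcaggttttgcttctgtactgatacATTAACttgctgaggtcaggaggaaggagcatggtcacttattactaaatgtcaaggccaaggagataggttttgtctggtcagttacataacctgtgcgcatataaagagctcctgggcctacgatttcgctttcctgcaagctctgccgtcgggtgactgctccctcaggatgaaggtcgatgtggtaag
*Slc34a1*, chr13:55399398-55399697, plus strand: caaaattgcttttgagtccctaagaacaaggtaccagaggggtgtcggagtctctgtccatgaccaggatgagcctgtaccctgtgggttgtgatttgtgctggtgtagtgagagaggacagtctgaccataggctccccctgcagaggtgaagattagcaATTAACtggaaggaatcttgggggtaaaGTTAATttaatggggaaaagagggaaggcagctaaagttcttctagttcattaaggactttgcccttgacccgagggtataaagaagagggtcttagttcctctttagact
The match began 142 bases before the *Miox* start, and those of *Slc34a1* began 61 and 89 bases before its start. A promoter was matched for 13 proximal members and 5 of these held the motif, as did 1 of 8 loop and distal, 1 of 7 collecting duct and 0 of 3 epithelial members, against 8.24% of all 27025 genes with a promoter in the table. CAAAGTCCA, a motif of hepatocyte nuclear factor 4, was in 0.555% of these genes and in none of the members. A match is a description of these letters only.

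Within the proximal wells the remaining members sorted into unlike sets. Well 19 (YFP1, 10363577 counts) had the highest levels of *Fbp1* (2666 CPM) and of *Pck1*, the gluconeogenic carboxykinase (1414 CPM), and 1720 CPM of *Slc27a2*, a fatty acid transport protein. Well 69 (YFP2, 4217630 counts) held 12 of 16, with *Slc22a8*, an organic anion transporter, at 3562 CPM, *Slc27a2* at 3018, *Slc13a3*, a dicarboxylate cotransporter, at 2168.5 and the endocytic receptors *Lrp2* and *Cubn* at 1042 and 392. *Cubn* and *Slc13a3* were held by no other well of either genotype. Well 72, of only 365262 counts, reached 6064 CPM of *Miox* and 4350 of *Gatm*, the first enzyme of creatine synthesis, and well 52 had 1190 CPM of *Gatm* and 1147 of *Kap*, the kidney androgen-regulated protein. *Kap* was otherwise held only by wells 45 and 93, at 172 and 178 CPM, and had a count of 0 in wells 19, 69 and 72. *Slc5a2*, the glucose cotransporter of the early proximal tubule, was held by wells 48 and 96 only, at 187 and 121 CPM, and its relative *Slc5a12*, a lactate cotransporter, by wells 72 and 69 only, at 309 and 344. *Slc22a6*, an organic anion transporter, was held by wells 19, 69, 48 and 96, at 104 to 278 CPM. *Aqp1*, the water channel of the proximal tubule and descending limb, was held by no well and peaked at 91.8 CPM in well 48.

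Loop and distal genes came together in a single well. Well 23 of YFP1 (8968618 counts) had *Klk1*, tissue kallikrein, at 14883 CPM, *Slc12a1*, the sodium-potassium-chloride cotransporter of the thick ascending limb, at 3372, its partner channel *Kcnj1* at 250 and *Umod*, uromodulin, at 247. These were 90.5% of all Renin-null counts of *Klk1*, 95% of *Slc12a1* and 84% of *Kcnj1*. The same well held *Cdh16*, kidney cadherin, at 1012 CPM, *Krt19* at 517 and *Lrp2* at 434. *Slc12a3*, the cotransporter of the distal convoluted tubule, was instead held by wells 48 and 96, at 427 and 297 CPM, and was 0.112 CPM in well 23. *Calb1*, calbindin, was held by wells 45 and 93, at 127 and 114 CPM. *Klk1* was held by wells 45, 93, 48 and 96 also, at 407 to 807 CPM, and by well 24, of 37375 counts, at 321 CPM, and its reads may be shared with the near-identical Klk1b genes. *Cldn16*, a claudin of the thick ascending limb, had 9 counts, all in well 23, and *Pvalb* had no count in any well. *Egf* was held only by well 15, at 171 CPM, a well that held no segment but held both *Acta2* and *Akr1b7*. Just outside the threshold, wells 45, 48, 93 and 96 each held 2 loop and distal members. Well 68 held 1, *Umod* at 11643 CPM, beside the proximal member *Lrp2*, and had only 156228 counts in all, 76.8% of them mitochondrial.

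Collecting duct genes reached the threshold in wells 48 and 96 only, a near-identical pair. Both held the vasopressin-regulated water channel *Aqp2* (958.5 and 815.5 CPM), *Hsd11b2*, the enzyme that shields the mineralocorticoid receptor from glucocorticoid (316 and 357), and the pump regulator *Fxyd4* (1180 and 657). These wells also carried the sodium channel subunits *Scnn1b* (98.9 and 58 CPM) and *Scnn1g* (40.3 and 39.5) below the 100 CPM line. The same 2 wells held 8 and 10 proximal members, *Slc12a3* and *Klk1*, and *Cdh16* at 1818 and 1064 CPM, so markers of every segment were present in each. They also held 4 of 6 erythroid markers, with summed levels of 20418 and 10256 CPM led by *Hba-a2* (7684 and 3690), which shares sequence with *Hba-a1*. Their wells had 10121 and 11146 genes with a count. The part of mixed cells in these wells was not tested. *Fxyd4* was held apart from them by well 51 (747 CPM) and by wells 67 and 79 (162 and 239). The intercalated cell genes *Atp6v1g3*, *Slc4a1* and *Slc26a4* had at most 72, 1 and 10 counts over all Renin-null wells and were held by none. *Aqp3*, another water channel, was held by no well of either genotype and peaked at 99.0 CPM in well 96.

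Of the epithelial members, *Epcam*, the epithelial adhesion molecule, and the keratins *Krt8*, *Krt18* and *Krt19* were held together by well 7 of YFP1, at 270, 159, 664 and 167 CPM. No member of the other 3 groups exceeded 23.7 CPM there, while the proximal and collecting duct genes outside the 40, described below, summed to 1022 and 538 CPM in it, with 1 gene held in each list. Well 7 also had 753 CPM of *Dcn*, decorin of fibroblasts, of a summed level of 754 CPM over 5 fibroblast markers. Well 51 of YFP2 combined *Krt18* (446 CPM) and *Cdh16* (127) with *Fxyd4* and had 154 CPM of *Dcn*. *Krt8* and *Krt18* have many processed pseudogenes, so their counts are less certain.

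**Figure D1:**
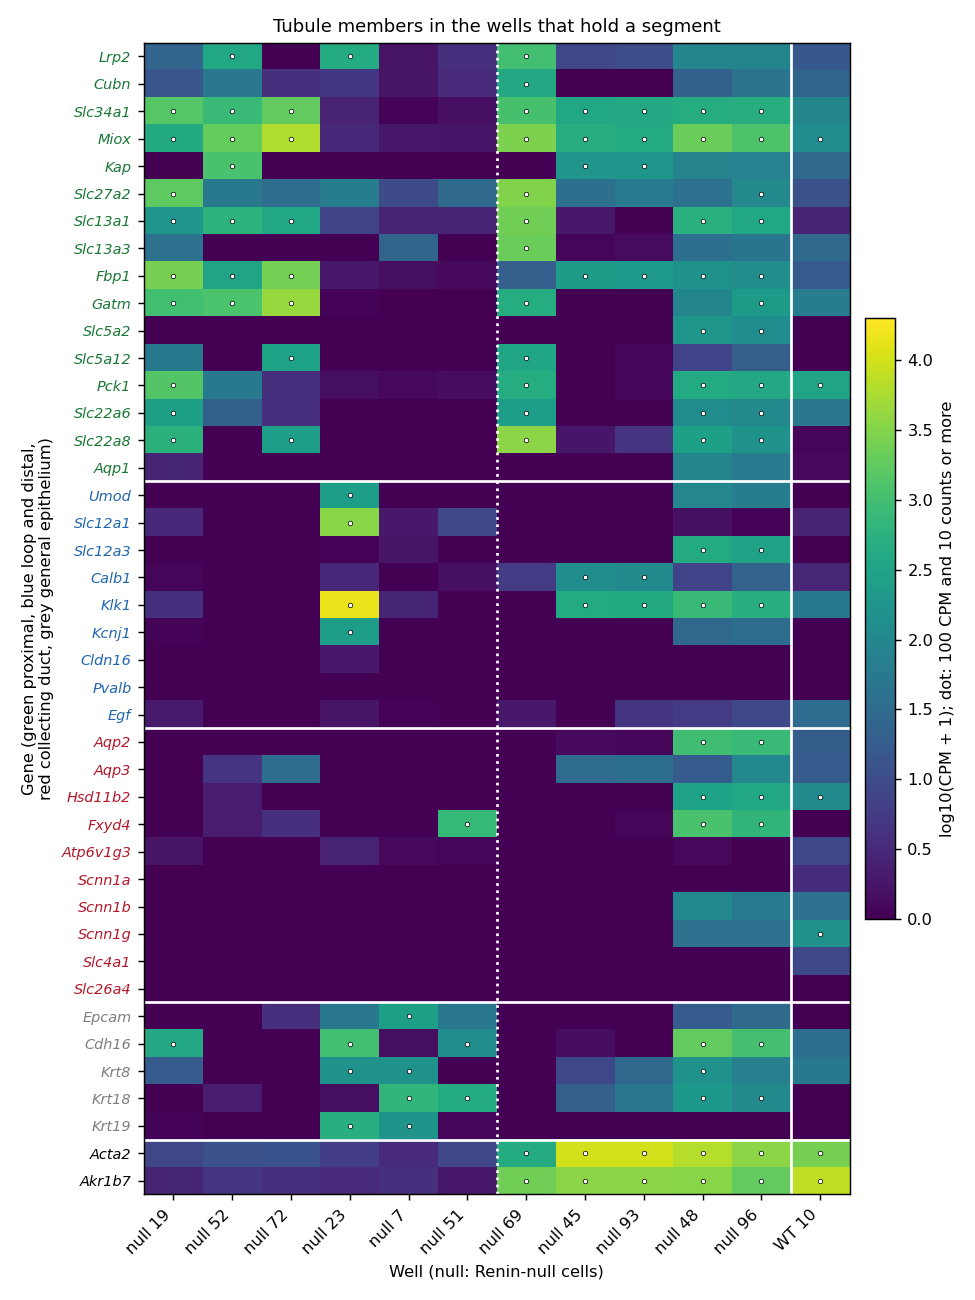
Heat map of log10(CPM + 1) of the 40 members and of Acta2 and Akr1b7 (rows) in the 11 Renin-null wells that held a segment and in WT well 10 (columns), with a dot where a gene was held. The 6 wells left of the dotted line have Acta2 between 2.23 and 11.0 CPM, and the 5 wells between the lines have Acta2 between 446 and 10302 CPM.

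In WT cells most members had the bulk of their counts in a single well, and most were below the held level in every well. WT well 10, which had 12216332 counts and 10791 genes, was the top well of 24 of the 36 members with a WT count, and 28 members had at least 80% of their WT counts in a single well. It had a count of 28 members, where the next WT well had 11 and the median was 2. *Pck1* reached 324 CPM in it, *Scnn1g*, the gamma subunit of the epithelial sodium channel, 152, *Miox* 117 and *Hsd11b2* 111. It was also a well of renin cell genes, with *Ren1* at 163752, *Akr1b7* at 7637 and *Acta2* at 2661 CPM. Elsewhere in WT, *Pck1* was held by well 5 (959 CPM), *Slc34a1* by well 1 (480), *Fxyd4* by well 28 (349) and *Lrp2* by well 35 (115). In all, 5 of 51 WT wells held any member (9.80%, 3.26 to 21.4) and 31 of 96 Renin-null wells did (32.3%, 23.1 to 42.6).

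Summed over each genotype, 26 of the 39 members with a ratio were at least 4-fold higher in Renin-null cells and 3 were at least 4-fold lower. Of all 18720 genes with a ratio 39.4% were at least 4-fold higher and 11.4% at least 4-fold lower, so the members' shares were 66.7% and 7.69%. The median log2 ratio was 3.79 for the members and 1.17 for all genes. By group the median was 3.90 in the proximal list (15 of 16 at least 4-fold higher), 8.18 in the loop and distal list (6 of 8), 0.26 in the collecting duct list (1 of 10, with 3 lower) and 5.96 in the epithelial list (4 of 5). The collecting duct median changed sign with the setting, at -0.45 with TMM factors, -1.15 with near-identical wells counted once, -1.61 in wells of at least 100000 counts, 1000 genes and at most 25% mitochondrial counts, and -3.77 in YFP1 alone. Other settings raised this median, to 5.95 without each gene's top well and 1.35 by the mean over wells of CPM. Without the wells of over 9000 genes it was 0.85. Scaling by TMM factors moved the median of all genes to 0.47 and left 23 members higher and 4 lower, against 32.6% and 15.8% of all genes. Leaving out the wells of over 9000 genes, WT well 10 among them, gave 28 of 36 higher and 0 lower, against 39.8% and 12.2% of all genes. Leaving out each gene's top well in each genotype gave 34 of 35 higher and 0 lower, against 47.8% and 6.45% of all genes. Several members, *Lrp2*, *Miox*, *Slc27a2*, *Slc13a1* and *Fbp1* among them, are on lists the study drew from these cells, so the counts are no independent evidence.

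Among proximal members the summed level of *Miox* was 7.22 CPM (95% Poisson interval 6.85 to 7.6) in WT and 115 (114 to 116) in Renin-null wells (log2 ratio 4.00, 3.92 to 4.07). *Slc34a1* had 7.96 and 92.9 CPM (log2 ratio 3.54) and *Lrp2* had 7.84 and 84.9 (3.44). *Slc22a8* had 7 WT counts and 23748 Renin-null counts (log2 ratio 10.72, 9.67 to 12.03). *Slc5a2* had no WT count and was at least 301-fold higher, against a floor of 3 counts over the WT group, but nearly all of its counts were in wells 48 and 96, and the log2 bound was 0.54 in YFP1 alone and 9.10 in YFP2 alone. *Pck1* was the exception, with 75.4 CPM in WT, 72.4% of it from well 5, and 55 in Renin-null cells (log2 ratio -0.46, with 0.10 in YFP1 and -1.19 in YFP2). In the loop and distal list, *Klk1* went from 3.32 to 370 CPM (6.80, 6.69 to 6.91) and *Slc12a1* from 0.106 to 79.8 (9.55, 8.94 to 10.25). *Umod*, *Slc12a3* and *Kcnj1* had 2, 2 and 1 WT counts, which gave ratios of 10.30 (8.44 to 13.34), 10.15 (8.30 to 13.20) and 10.37 (7.89 to 15.67). By library the ratio was 7.83 in YFP1 and 3.85 in YFP2 for *Klk1*, 10.65 and 5.42 for *Slc12a1*, 6.26 and 10.98 for *Slc12a3* and 11.27 and 8.54 for *Kcnj1*, and for *Miox* it was 2.58 in YFP1 alone.

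The collecting duct list divided. *Aqp2* was higher in Renin-null cells (log2 ratio 4.67, 4.48 to 4.87), and *Scnn1g* (-2.88, -3.02 to -2.74), the alpha subunit *Scnn1a* (-4.38, -6.73 to -2.70) and the anion exchanger *Slc4a1* (-7.55, -12.87 to -5.04) were lower. The 3 lower members had 1855 of 1859, 31 of 31 and 91 of 93 WT counts in well 10, so each ratio rests on that well. In YFP1 alone the ratio was -4.30 for *Aqp2*, -9.29 for *Hsd11b2* and -2.15 for *Fxyd4*, against 5.54, 1.56 and 2.07 in YFP2 alone, so for these 3 the direction followed the library that held wells 48 and 96. *Scnn1b*, *Krt19* and *Cubn* also changed direction between libraries, at -7.28, 7.96 and -0.05 in YFP1 and 0.70, -4.89 and 2.82 in YFP2. *Krt18* had no WT count and was at least 1908-fold higher against the same floor. *Cdh16* went from 2.16 to 77.5 CPM (log2 ratio 5.16, 5.03 to 5.30), and its ratio was 5.08 in YFP1 and 5.23 in YFP2.

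**Figure D2:**
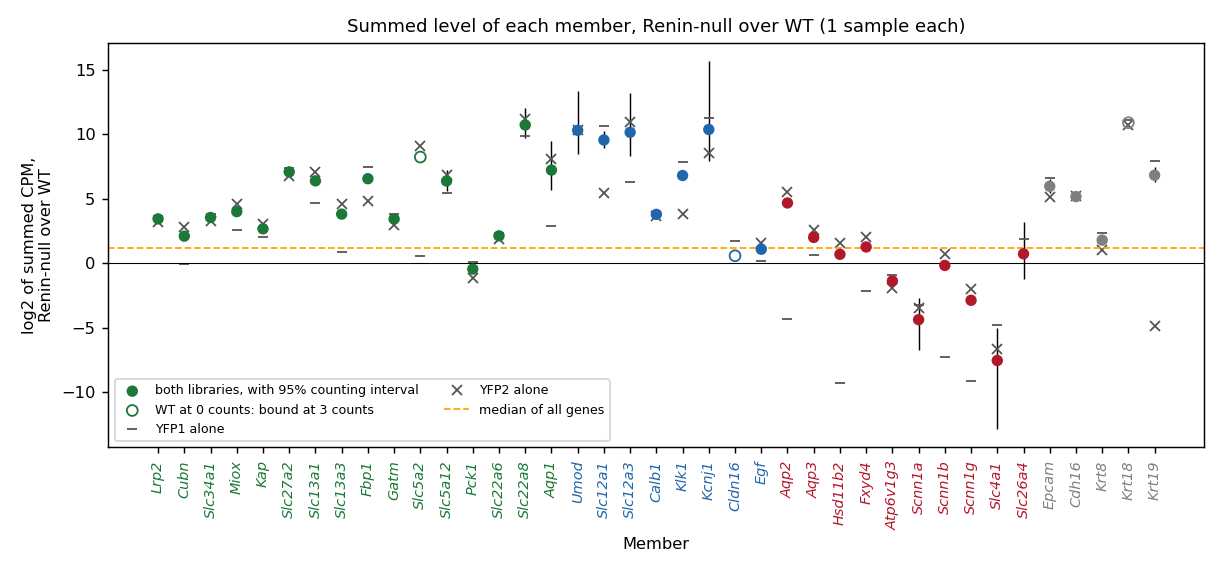
The log2 ratio of summed CPM, Renin-null over WT, for the 39 members with a ratio (x axis), filled points with 95% counting intervals, open points where WT had 0 counts and the value is a bound, dashes and crosses for YFP1 and YFP2 alone, and a dashed line at the median of all genes (1.17). Proximal, loop and distal and epithelial points lie mostly above the line, and collecting duct points lie on both sides of 0.

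Per kilobase of merged exon, the highest summed level in Renin-null cells was that of *Klk1* (343 CPM per kb), followed by *Miox* (69.8), *Fbp1* (52.1), *Fxyd4* (25.1) and *Slc27a2* (24.0). In WT cells the order by the same quantity began with *Pck1* (22.0), *Fxyd4* (10.5), *Miox* (4.37), *Hsd11b2* (3.74) and *Scnn1g* (3.14). These are sums that 1 or a few wells set.

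Genes of the same segments outside the 40, from lists drawn up for this comparison, were counted in the same way, against 39.4% of all genes higher and 11.4% lower. Of 29 other proximal genes with a ratio, 20 were at least 4-fold higher in Renin-null cells and 2 lower, with a median log2 ratio of 4.17. Among the most abundant were *Acsm2* and *Keg1* in Renin-null cells (169 and 136 CPM) and *Pdzk1*, *Slc7a8* and *Acsm2* in WT (215, 187 and 88.2), *Pdzk1* and *Slc7a8* being the 2 that were lower (-2.93 and -4.66). Other loop and distal genes were 11 of 17 higher and 1 lower (median 2.53), with *Fxyd2*, *Wnk1* and *Cldn19* leading in Renin-null cells at 466, 116 and 62.7 CPM and *Wnk1*, *Fxyd2* and *S100g* in WT at 175, 44.7 and 24.4. Of *Cldn19*, a claudin of the thick ascending limb, 99.4% of Renin-null counts were in well 23. Other collecting duct genes were 8 of 17 higher and 4 lower (median 1.81), with *Gata3* first in both genotypes at 553 and 416 CPM, followed by *Tfcp2l1* (256, 96.7% of it in well 23) and *St6gal1* (100.1) in Renin-null cells and by *St6gal1* (96.3) and *Npnt* (7.91) in WT. *Gata3* had a count in 45 of 51 WT and 89 of 96 Renin-null wells, more than any member in either genotype. Other epithelial genes were 16 of 17 higher and 0 lower (median 6.86), led by *Krt7*, *Ehf* and *Spint2* at 183, 56.6 and 37.4 CPM in Renin-null cells and by *Ap1m2*, *Krt7* and *Spint2* at 5.44, 4.93 and 1.65 in WT.

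Markers of other cells were counted in the same way, against the same 39.4% of all genes at least 4-fold higher in Renin-null cells and a median gene at 1.17. At least 4-fold higher were 5 of 6 endothelial markers (223.8 against 36.8 CPM summed, led by *Emcn*), 4 of 5 podocyte markers (559 against 86.1, led by *Synpo*), 4 of 5 fibroblast markers (1159 against 173, led by *Col3a1* in Renin-null and *Col1a2* in WT cells), 3 of 5 macrophage markers with a ratio (10.1 against 1.48, led by *Cd74* and *Ptprc*) and 4 of 5 erythroid markers with a ratio (435 against 36.9, led by *Hba-a2* and *Alas2*). In the 11 segment wells no endothelial or macrophage marker was held. Wells 45 and 93 held the podocyte marker *Synpo* (452 and 477 CPM) and had no count of *Podxl* or *Wt1*. The part of these cells in the tubule results was not tested.

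The wells that held a segment fell into 2 kinds by the mural genes. In 6 of the 11, wells 7, 19, 23, 51, 52 and 72, neither *Acta2* nor *Akr1b7* was held. *Acta2* (chr19:34241090-34255590, minus strand) was 2.23 CPM in well 7, 7.33 in well 19, 5.13 in well 23, 7.20 in well 51, 10.5 in well 52 and 11.0 in well 72, which came from 4 to 76 counts. *Akr1b7* (chr6:34412334-34423142, plus strand) was 0.916 to 3.50 CPM in the same wells, from 1 to 26 counts. In the other 5, wells 45, 48, 69, 93 and 96, both were held, *Acta2* at 10302, 6585, 446, 9973 and 3536 CPM and *Akr1b7* at 3580, 3414, 2321, 3504 and 1828. No value of either gene lay between the 2 kinds, the gap running from 11.0 to 446 CPM for *Acta2* and from 3.50 to 1828 for *Akr1b7*. *Tagln*, transgelin of smooth muscle, followed, at 7.03 to 32.9 CPM in the 6 wells and 1130 to 5623 in the 5, and so did *Myh11*, smooth muscle myosin, at 2.33 to 5.69 and 207 to 1710. *Cnn1*, calponin, was 0 to 3.76 CPM in the 6 wells and 238 or more in the 5 except well 69, where it was 0.711. *Akr1b7* has near-identical family members with which its reads may be shared.

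Of the 8 proximal wells, 5 held *Acta2* and the same 5 held *Akr1b7* (62.5%, 24.5 to 91.5). Of the 88 Renin-null wells without the proximal segment, 64 held *Acta2* (72.7%, 62.2 to 81.7), 48 held *Akr1b7* (54.5%, 43.6 to 65.2), 46 held both and 22 held neither (25.0%, 16.4 to 35.4). Wells are not replicates of a condition and no test of a difference in these shares was run. With near-identical pairs counted once, or with the wells of over 9000 genes left out, 3 of 6 proximal wells held each gene. The 3 that remain among the both-held wells after near-identical wells are counted once are 45, 48 and 69. Well 69 is the only one of the 5 that was in no near-identical pair, and its index labels disagree, and without it 4 of 7 held each gene. In WT, 28 of 51 wells held *Acta2*, 35 held *Akr1b7* and 24 held both, and all 5 WT wells with a held member were among these 24.

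*EYFP*, the reporter transcript, named after its values were seen, was 0 to 10.3 CPM in the 6 wells that held a segment without mural genes, from 0 to 107 counts, and 0.711 to 1006 CPM in the 5 with them. It was also low in most sorted wells, with a median of 6.80 CPM over all Renin-null wells and 1.05 over all WT wells. *Ren1* had 0 to 7 counts in each of the 11 wells.

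**Figure D3:**
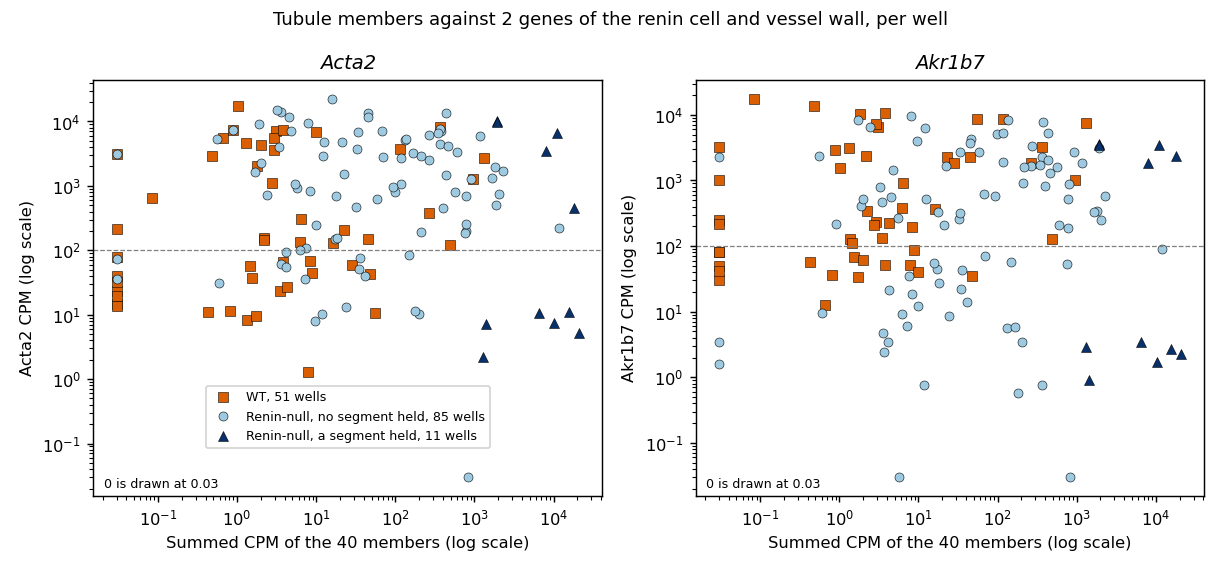
Summed CPM of the 40 members in each of the 147 wells (x axis, log scale) against Acta2 (left) and Akr1b7 (right) CPM (y axis, log scale), squares for WT, circles for Renin-null wells that held no segment and triangles for the 11 that did, with the 100 CPM line dashed. The triangles form a lower group of 6 and an upper group of 5 in both panels.

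Most of the members' counts were in these few wells. Of 589844 member counts in Renin-null cells, 92.2% lay in the 11 segment wells and 42.9% lay in wells that held both mural genes. The latter share was 58.9% for proximal, 12.1% for loop and distal, 84% for collecting duct and 37.0% for epithelial counts, the low value of the loop list being set by well 23. It also differed by library, at 9.45% of member counts in YFP1 and 89.2% in YFP2. In WT, 98.9% of 33217 member counts were in wells that held both mural genes. A few wells set this share. *Pck1* of well 5 alone gave 10812 of these counts and *Fxyd4* of well 28 gave 4059, and well 10 was the top well of 24 members. The 24 WT wells that held both were also deeper, at a median of 4317577.5 counts, against 1228460.5 in the 12 that held neither.

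Outside the segment wells, single proximal genes were held mostly, but not only, in wells that held mural genes. In 16 of the 85 Renin-null wells without a segment, 1 or 2 proximal members were held, and 14 of these held *Acta2* and 12 held both mural genes. Of all 85 wells, 64 held *Acta2* (75.3%) and 46 held both (54.1%), and no difference was tested. *Lrp2*, the megalin receptor (chr2:69424340-69586065, minus strand), accounted for 11 of the 16 wells and was the only proximal member in 9. It was held by 14 Renin-null wells in all, of which only 3 held a segment, and well 6 had the most counts of it, at 911 CPM beside 1290 of *Acta2* and 2671 of *Akr1b7*. *Lrp2* is also the longest member, at 16701 bases of merged exon, and full-length counts rise with length. *Slc34a1* was the only proximal member of 3 of the 16, wells 47, 84 and 95. Wells 47 and 95 are a near-identical pair, counted as separate wells in the 16, 14 and 12. No Renin-null well outside the 8 held *Miox*, *Kap*, *Pck1*, *Slc22a6* or *Slc22a8*.

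Low counts, meaning a count that did not reach the held level, were spread far more widely. Of 51 WT wells, 42 had a count of some member (82.4%), as did 93 of 96 Renin-null wells (96.9%). There were 785 low values over the Renin-null wells, at a median of 3 counts, which made up 4.71% of all Renin-null member counts. WT had 136, also with a median of 3, which made up 24.3% of all WT member counts. Most of the counts in these WT low values lay in well 10, led by *Slc34a1* at 1107 counts and *Gatm* at 786. The WT share of 24.3% therefore rests largely on that well and does not measure the spread over wells. In wells without a segment, the proximal members gave low values in 8.46% of member-by-well pairs in WT, 21.3% in YFP1 and 32.8% in YFP2, the loop and distal members in 8.06%, 18.4% and 22.2%, the collecting duct members in 4.51%, 5.45% and 10.2% and the epithelial members in 2.75%, 20.5% and 11.7%. Between 47.9% and 84.4% of those low values in Renin-null libraries were of 1 to 3 counts. As CPM the low values had proximal medians of 1.08 in WT, 0.946 in YFP1 and 0.964 in YFP2. The number of members with a count went with the counts in the well in WT and YFP1, and only weakly in YFP2. The Spearman correlation over wells without a segment was 0.58 in WT (51 wells), 0.47 in YFP1 (44) and 0.16 in YFP2 (41), given as a description.

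The spread was uneven among members. *Lrp2* had a count in 61 of 96 Renin-null wells, *Slc13a1* in 52, *Miox* and *Slc34a1* in 51 each, *Pck1* in 43 and *Klk1* and *Slc27a2* in 42 each, while *Slc5a2* had a count in 3, *Scnn1b* and *Scnn1g* in 2 each and *Aqp1* in 6. In WT the widest were *Calb1* in 23 of 51 wells, with 77 counts in all, *Pck1* in 17 and *Lrp2* in 13. For *Calb1* the share of wells with a count was 45.1% in WT and 36.5% in Renin-null cells.

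**Figure D4:**
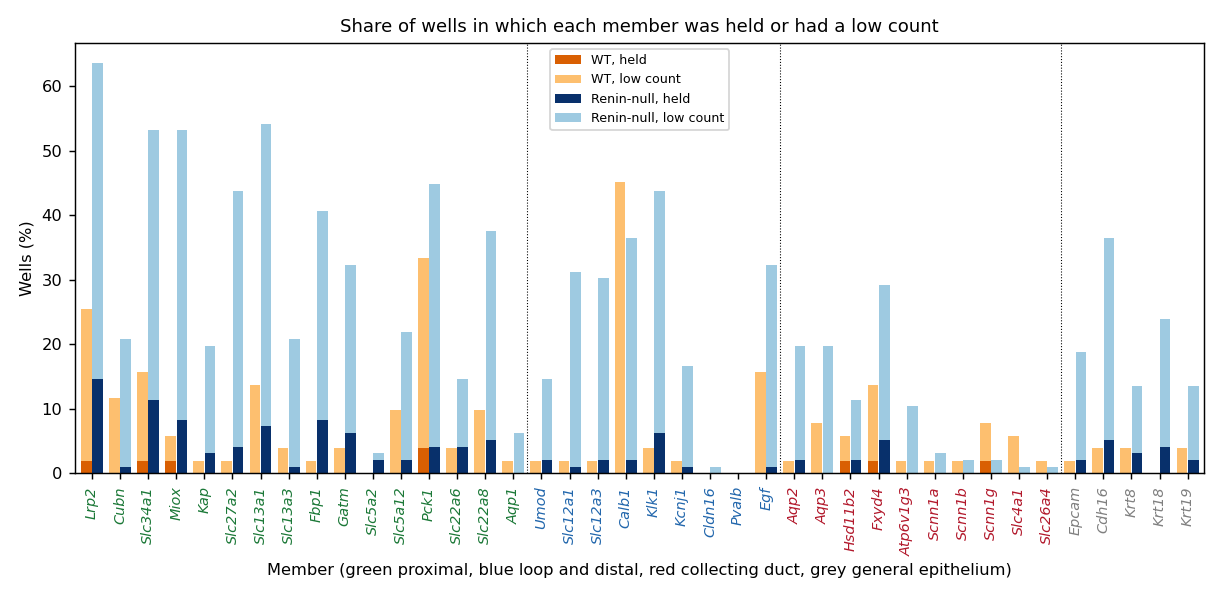
Share of wells (y axis, percent of 51 WT or 96 Renin-null wells) in which each member (x axis) was held, in dark colour, or had a low count, in light colour stacked on it. The dark part is small beside the light part for nearly all members, with Lrp2 at 63.5% of Renin-null wells and 14 wells held.

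Wells of a library carry paired sequencing indices, and low counts were set against the index shared with the leading well. The members used had at least 1000 counts in 1 well and at least 80% of the library's counts there. In the WT library 4 did, *Miox*, *Hsd11b2* and *Scnn1g* led by well 10 and *Fxyd4* led by well 28. Counted as member-by-well pairs summed over the 4, they had a count in 12 of 32 pairs in which the well shared an index with the leading well (37.5%) and in 1 of 168 in which it did not (0.595%). Their counts in all other wells together were 0.211% to 0.295% of the leading well's. In YFP1 13 members qualified, with a count in 57 of 182 sharing pairs (31.3%) and 101 of 429 others (23.5%), and their counts in other wells were 0.278% to 19.8% of the leading well's (median 1.81%). In YFP2 none could be used, since no member met the rule with a well whose index labels agree. Taking every gene of the table that met the rule, the shares were 59.7% and 13.8% in WT and 25.7% and 25.5% in YFP1. Well pairs are not independent and no test was run, and the part of index exchange in the low counts was not tested.

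**Figure D5:**
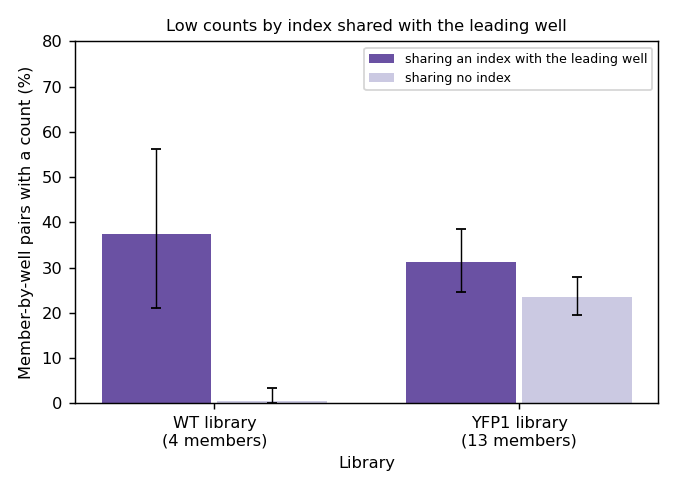
Percent of member-by-well pairs with a count (y axis) among wells that share an index with the leading well (dark) and wells that share none (light), for the WT library (4 members) and YFP1 (13 members), with 95% Clopper-Pearson intervals that cover counting error only. The WT bars stand at 37.5% and 0.595%, and the YFP1 bars at 31.3% and 23.5%.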

How the data were processed

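Per the labels and the study's methods, the authors trimmed the reads with Trimmomatic 0.39 after FastQC 0.11.5, quantified them with Salmon 0.11.2 on GRCm38.p6 and summed transcripts to genes with tximport (lengthScaledTPM), so the deposited values are expected counts, scaled for transcript length and library size and not normalized for depth. Columns were assigned to wells by title, expected counts were rounded to whole numbers, and no value of another series was used. A held gene, a well that holds a segment and the 4-fold call were defined as in the results. Ratios used counts summed per genotype, with a group at 0 set to 3 counts and no ratio where both had 3 or fewer. The 95% intervals are exact (Clopper-Pearson, Poisson, conditional binomial). Gene positions and merged exon lengths are from GENCODE M21, promoters from RefSeq. The ratio and its 4-fold call were tested on simulated data. Python 3.11.15, pandas 2.3.3, numpy 2.4.6, scipy 1.17.1, R 4.3.3 and edgeR 4.0.16 (TMM factors only) were used. No doublet caller was run.

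The members and lists were chosen with earlier results of these data known. All 40 members are named by segment, with Acta2, Akr1b7, Ren1, Tagln, Cnn1 and Myh11, and with fuller statistics for members of many counts. Other lists are given as counts over all their genes, with abundant genes as examples, and some genes in them are not reported here by name. Alternatives changed the held level, the number of members, the scaling, the wells kept and the depth.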

Additional observations from a re-analysis of the deposited data

How the results depend on the processing

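Of 120 values under alternative settings, 100 stayed inside the interval of the reported share or within 1.5 times of the reported count, and 20 did not. No WT well held loop and distal genes under any setting, and at most 1 WT well held proximal or collecting duct genes under any setting. The Renin-null share that held loop and distal genes was 0 at 1000 CPM, with 5 or more members and in YFP2 alone, and the share that held collecting duct genes was 0 under the first 2 of these, in YFP1 alone and with the wells of over 9000 genes left out, an alternative chosen after seeing the data. At 1000 CPM, *Acta2* was held in 0 of 4 proximal wells. Members at least 4-fold lower were 1 by the mean over wells of CPM and with genes of at least 100 counts. They were 0 without each gene's top well and without the wells of over 9000 genes, and 7 for YFP1 alone against WT. Of all genes, 8.77%, 11.3%, 6.45%, 12.2% and 19.2% were lower under these settings in turn, and the 7 members were 17.9% of those with a ratio. Of low counts by shared index, the WT share without a shared index was 6.85% with members at 50% or more in 1 well. With 10 counts or more as a detection, both WT shares were 0 and those of YFP1 were 4.95% and 5.13%. With all genes of the table, the WT shares were 59.7% and 13.8%. Members at least 4-fold higher numbered 23 to 34 over all settings. The causes were not tested. Only 15 WT and 57 Renin-null wells had at least 100000 counts, 1000 genes and at most 25% mitochondrial counts. Thinned to 62000 counts, 0 of 49 WT and 8 of 83 Renin-null wells held proximal genes. In wells of fewer than 100000 counts, the minimum of 10 counts sets a level above 100 CPM. No paired analysis was possible because the wells carry only numbers given in record order and the labels tie none to a mouse.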
